A study of Mus musculus with 4 samples.

Results

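The 10 genes described here encode the mouse MHC class II molecules, the proteins that load them and their transcriptional regulator. They were chosen by name (H2-Aa, H2-Ab1, H2-Eb1, Cd74, H2-DMa, H2-DMb1, H2-DMb2, H2-Oa, H2-Ob and Ciita) out of 40481 genes in the deposited count table, because the first 4 had been seen to be higher in one genotype. All 10 were found, and all 10 passed the filter on low counts. The libraries were made from type 1 innate lymphoid cells (ILC1s), which stay in tissues and are related to natural killer cells, sorted for the integrin CD49a. Control mice were Inpp4b flox/flox (libraries 1 and 2), and the mice labelled knockout were Ncr1-iCre Inpp4b flox/flox (libraries 3 and 4). The floxed Inpp4b alleles are thus shared by both groups, and the iCre recombinase is present in 1 group only. In the label Ncr1-iCre, Ncr1 is the gene of the receptor NKp46. The presence of iCre and a loss of Inpp4b cannot be told apart. The labels give liver as the tissue of control library 1 and only the cell type for the others, and give no age. Whether each library came from its own animal is not stated, and p-values therefore reflect only how much these libraries vary, which may be technical.

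Class II molecules are heterodimers of an alpha and a beta chain that display peptides from endosomes to CD4 T cells. The invariant chain, encoded by Cd74, escorts the new dimer to endosomes and blocks its groove. DM, a class II-like heterodimer, then exchanges the last invariant chain fragment for peptide, and DO restrains DM. CIITA binds no DNA itself. It docks on the factors RFX, CREB and NF-Y, which sit on a shared module of X and Y boxes upstream of the class II, Cd74, DM and DO genes. Dendritic cells, B cells and activated macrophages are the usual sites of expression, and interferon-gamma induces Ciita in many other cells.

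The X and Y boxes could be read before a RefSeq start of several of these genes, all of which lie in the class II region of chromosome 17. RefSeq promoter windows (GRCm38.p6, the assembly also called mm10), from 250 bases before to 50 bases after an annotated start, were matched for 7 members. The letters ATTGG, the core of the Y box, were searched on both strands and occurred in 7 of the 8 windows of these genes, against 37.4% of all 32851 windows. The letters GNAAC, found in the X box, followed on the same strand by ATTGG after 20 to 45 bases, occurred for 5 members, namely H2-Aa, H2-Eb1, H2-DMb1, H2-Oa and H2-Ob, against 4.13% of all windows. The spacing was set after the sequences had been seen. A match is a description of the letters and no evidence of binding. The sequences are shown as background, and a link between these motifs and the values below was not tested. GNAAC and ATTGG are in capitals, and the gene strand is printed 5′ to 3′.
H2-Aa (chr17:34287859-34287916, minus strand): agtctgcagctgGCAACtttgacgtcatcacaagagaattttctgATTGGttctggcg
H2-Eb1 (chr17:34305764-34305820, plus strand): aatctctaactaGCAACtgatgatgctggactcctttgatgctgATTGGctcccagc
H2-Ob (chr17:34238806-34238860, plus strand): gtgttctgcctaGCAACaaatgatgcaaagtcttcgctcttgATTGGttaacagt
H2-Oa (chr17:34092291-34092348, plus strand): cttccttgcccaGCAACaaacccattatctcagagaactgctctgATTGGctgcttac
H2-DMb2 (chr17:34145099-34145171, plus strand): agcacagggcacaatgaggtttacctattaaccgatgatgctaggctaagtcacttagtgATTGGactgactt
The pair was 28 bases apart in H2-Aa, H2-Oa and H2-DMb1, 27 in H2-Eb1 and 25 in H2-Ob. In H2-DMb2 the Y box letters were present without GNAAC at that spacing, where the printed stretch reads ttaac instead. The letters searched do not cover such a variant. H2-DMa had 2 windows, of which 1 held ATTGG, lying 198 bases before that start, and neither held the pair. The H2-DMb1 pair, the H2-DMb2 stretch and the H2-DMa windows begin inside the gene positions given below. They are thus upstream of a RefSeq start but not of the whole annotated gene.

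Library totals ranged from 42380840 to 54878210 counts. Inpp4b, summed over all its exons, was at 78.7 and 106.5 CPM (counts relative to the TMM-scaled library total) in the controls, versus 142.5 and 86.0 CPM in libraries 3 and 4. The whole-gene count was thus not lower, and it does not check a deletion of part of the gene. Each direction given below is therefore that of the libraries labelled knockout. The ILC1 genes Klrb1c (1957 to 2177 CPM over the 4 libraries), Itga1 (178.9 to 217.6 CPM), which encodes CD49a, and Tbx21 (39.4 to 57.0 CPM), which encodes T-bet, were detected in every library, and Eomes, a natural killer cell factor, was at 0.868 to 3.73 CPM. edgeR called 21 of 14863 tested genes higher in the libraries labelled knockout and 2 lower at an adjusted p under 0.05. The contrast between the genotypes was used to choose the members, so their differences are given as a description, without p-values.

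The classical chains and the invariant chain were about 5 to 7 times as high in the libraries labelled knockout as in controls. H2-Aa (ENSMUSG00000036594, mm10 chromosome 17, 34282744 to 34287823, minus strand), the alpha chain of the A molecule, was at 31.7 and 27.5 CPM in the controls, versus 160.7 and 245.4 CPM in libraries 3 and 4. Its mean was 6.85-fold higher, with a log2 fold change of 2.78 (SE 0.25). H2-Ab1 (ENSMUSG00000073421, chromosome 17, 34257689 to 34269419), the beta chain that pairs with it, was at 40.7 and 42.9 CPM against 236.6 and 273.2 CPM (6.10-fold; log2 fold change 2.61, SE 0.16). Both chains of the A molecule thus differed in the same direction and to a like degree, and for each the lowest library labelled knockout was more than 5 times the highest control (5.06 and 5.51 times).

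H2-Eb1 (ENSMUSG00000060586, chromosome 17, 34305867 to 34316674), the beta chain of the E molecule, was at 18.9 and 16.3 CPM in the controls, versus 103.2 and 132.4 CPM in libraries 3 and 4 (6.69-fold; log2 fold change 2.74, SE 0.21). Its alpha chain partner was close to undetected. H2-Ea-ps, annotated as a pseudogene of that chain, had 0 and 0 counts in controls and 1 and 1 in the libraries labelled knockout. H2-Eb2, a further E beta gene, had at most 3 counts in any library. The E beta transcript thus lay between 16.3 and 132.4 CPM in libraries in which its partner did not pass 1 count.

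Cd74 (ENSMUSG00000024610, chromosome 18) was by far the most abundant member. It was at 220.1 and 288.0 CPM in the controls, versus 1008 and 1473 CPM in libraries 3 and 4 (4.88-fold; log2 fold change 2.29, SE 0.24). Cd74 made up 61.6% and 65.0% of the summed CPM of the 10 members in controls and 62.8% and 65.8% in the libraries labelled knockout. These ranges overlap. H2-Aa, H2-Ab1, H2-Eb1 and Cd74 are grouped here as the 4 classical genes, although Cd74 encodes the invariant chain. Of their summed CPM, Cd74 made up 70.7% and 76.8% in controls and 66.8% and 69.4% in libraries 3 and 4. Libraries 3 and 4 thus lay below the controls, by a gap smaller than the spread within either group. The 4 genes summed to 311.4 and 374.8 CPM in the controls, versus 1508 and 2124 CPM in libraries 3 and 4.

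Among the DM genes only the DMb1 chain had a difference of that size. H2-DMb1 (ENSMUSG00000079547, chromosome 17, 34153072 to 34160230), a beta chain of DM, was at 5.52 and 5.10 CPM in the controls, versus 27.0 and 24.0 CPM in libraries 3 and 4 (4.80-fold; log2 fold change 2.26, SE 0.29). H2-DMa (ENSMUSG00000037649, chromosome 17, 34119541 to 34139101), the alpha chain, was at 32.9 and 53.5 CPM against 58.0 and 76.1 CPM (1.55-fold; log2 fold change 0.63, SE 0.29). For H2-DMa the lowest library labelled knockout was 1.08 times the highest control, while the controls themselves differed 1.63-fold. H2-DMb2 (ENSMUSG00000037548, chromosome 17, 34143307 to 34151555), the second beta chain gene, was low, at 0.742 and 1.71 CPM against 1.35 and 2.84 CPM (log2 fold change 0.77, SE 0.80). The H2-DMb2 groups overlapped.

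Several features of the counting bear on the DM values. H2-DMb1 and H2-DMb2 are close copies: 22.7% of the 50-base stretches of H2-DMb1 transcripts and 11.3% of the 100-base stretches also occur in H2-DMb2 transcripts. Reads from those stretches may have been dropped or split, so both values are uncertain. Of the exon bases of H2-DMa, 360 (10.4%) lie opposite exons of Brd2, a chromatin reader gene on the other strand, and the strand setting of the counting is not given in the sources used here. Brd2 was at 173.4 and 248.3 CPM in the controls, versus 133.0 and 175.0 CPM in libraries 3 and 4, so that within each genotype the library with more Brd2 also had more H2-DMa. The part of Brd2 reads in the H2-DMa values was not tested.

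The DO genes were low, and their differences had opposite signs. H2-Ob (ENSMUSG00000041538, chromosome 17, 34238903 to 34254414), the beta chain of DO, was at 0.724 and 1.69 CPM in the controls, versus 3.16 and 3.09 CPM in libraries 3 and 4 (42 and 80 counts against 136 and 160; log2 fold change 1.37, SE 0.69). H2-Oa (ENSMUSG00000024334, chromosome 17, 34092340 to 34095234), the alpha chain, was at 3.26 and 2.35 CPM against 0.349 and 2.28 CPM (189 and 111 counts against 15 and 118). Its log2 fold change of -1.09 (SE 0.94) rested on library 3, and was -0.32 without it and -3.03 without library 4. Library 4 alone lay beside control library 2. H2-Oa has 321 exon bases (22.8%) opposite the gene BC051537, which had at most 22 counts in any library.

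Ciita (ENSMUSG00000022504, chromosome 16, 10480059 to 10528418) differed by less than the classical genes. It was at 2.85 and 3.64 CPM in the controls, versus 6.68 and 5.47 CPM in libraries 3 and 4, from 165 and 172 counts against 287 and 283 (1.87-fold; log2 fold change 0.90, SE 0.44). The groups did not overlap, and the lowest library labelled knockout was 1.50 times the highest control. The sum over all exons cannot separate the alternative first exons from which Ciita is transcribed in different cell types.

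**Figure D1:**
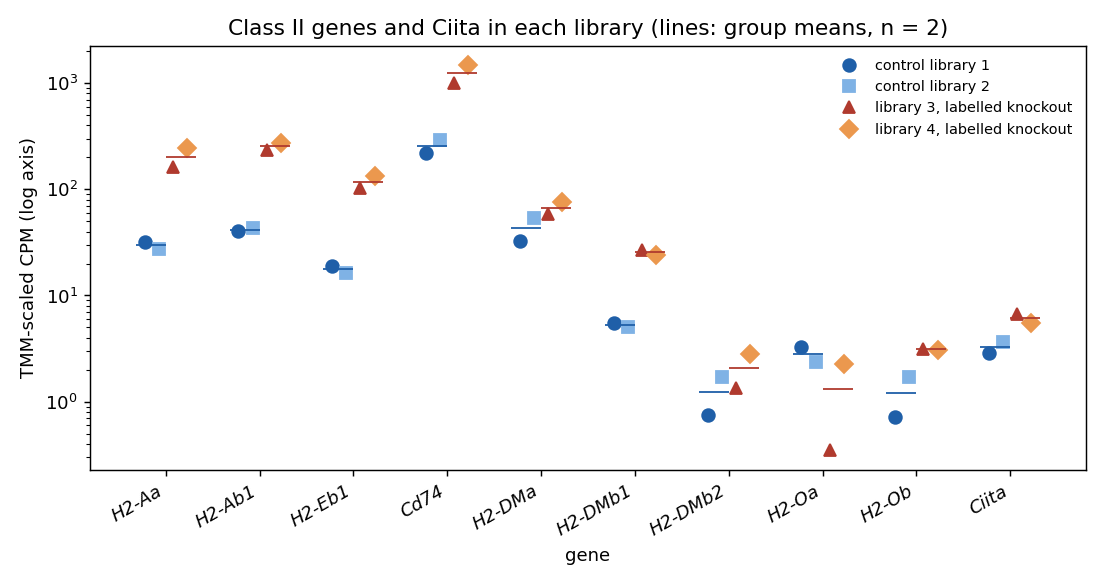
TMM-scaled CPM of each of the 10 genes (log axis) in control libraries 1 and 2 and in libraries 3 and 4, labelled knockout, with lines at the group means (n = 2). H2-Aa, H2-Ab1, H2-Eb1, Cd74 and H2-DMb1 sit well apart between the genotypes, whereas H2-DMb2 overlaps and H2-Oa is low mainly in library 3.

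Across the 10 genes, both libraries labelled knockout lay above both controls for 8, below both for H2-Oa and across them for H2-DMb2. Of all tested genes, 19.5% lay above in this way and 20.8% below. edgeR called 4 of the 10 higher (H2-Aa, H2-Ab1, H2-Eb1 and Cd74) and 0 lower, where 0.141% of all tested genes were called higher and 0.0135% lower. With p under 0.05 unadjusted, 5 members were higher and 0 lower. No weight can be put on these shares, since the contrast chose the genes. DESeq2 called 5, adding H2-DMb1, and 0 lower, where it called 1.85% of 15030 genes higher and 1.36% lower. The edgeR calls of members were all lost without control library 1, control library 2 or library 4, and were kept without library 3.

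**Figure D2:**
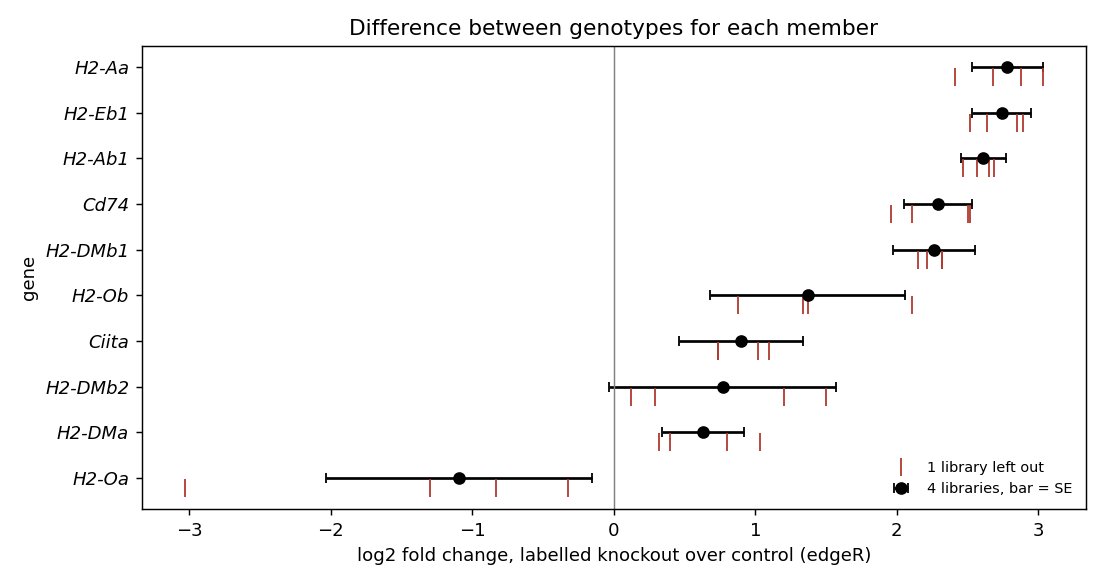
Log2 fold change of each gene, labelled knockout over control, from the edgeR fit of 4 libraries (points, bars are SE), with the values when 1 library is left out (red ticks). H2-Aa, H2-Eb1, H2-Ab1, Cd74 and H2-DMb1 lie between 2.26 and 2.78, H2-DMa, H2-DMb2, Ciita and H2-Ob between 0.63 and 1.37, and H2-Oa alone lies below 0.

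Scaled to exon length, the order of the levels was not the same in both genotypes. On the scale of CPM per kilobase of annotated exon, Cd74 was highest in controls, with a mean level of 151.3, followed by H2-Ab1 (16.3), H2-DMa (12.5), H2-Eb1 (9.06), H2-Aa (7.80) and H2-DMb1 (3.16). H2-DMa and H2-Eb1 overlapped between the controls, as did Ciita (0.340) and H2-Ob (0.225) at the low end. In the libraries labelled knockout the mean levels were 738.7 for Cd74, 99.3 for H2-Ab1, 60.6 for H2-Eb1, 53.5 for H2-Aa, 19.4 for H2-DMa and 15.2 for H2-DMb1. H2-DMa therefore had rank 3 in controls and rank 5 in the other genotype. There H2-Eb1 and H2-Aa overlapped, and so did each pair of neighbours among H2-DMb2, H2-Oa, Ciita and H2-Ob.

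Ratios taken within a library, per kilobase, separated genes that kept step from those that did not. The H2-Aa level was 0.527 and 0.434 times that of H2-Ab1 in controls and 0.459 and 0.607 times in libraries 3 and 4, which overlap. The ratio of H2-Eb1 to H2-Ab1 overlapped too (0.614 and 0.502 versus 0.576 and 0.640), while that of Cd74 to H2-Ab1 was 8.28 and 10.3 versus 6.51 and 8.24, a gap far smaller than the spread within either group. H2-DMb1 stood at 0.207 and 0.181 times H2-Ab1 in controls and 0.174 and 0.134 times in libraries 3 and 4, so that the lower control lay just above library 3.

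The DM alpha chain and Ciita did not keep step with the A beta chain. H2-DMa was at 0.602 and 0.929 times H2-Ab1 in controls but at 0.182 and 0.207 times in libraries 3 and 4. DMb1 was accordingly at 0.345 and 0.195 times DMa in controls and at 0.955 and 0.647 times in the libraries labelled knockout. H2-Ab1 stood at 53.1 and 43.8 times the level of Ciita in controls and at 131.6 and 185.5 times in libraries 3 and 4.

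Among the 7694 other tested genes with a mean of at least 10 CPM, the 6 nearest to the mean profile of the 4 classical genes included Ifitm3, Cybb, Ctsh, Adgre1 and Ctss. Likeness was the Euclidean distance over 4 libraries of log2 CPM centred on the control mean, and ran from 0.17 for Ifitm3 to 0.49 for Ctss. Ifitm3, an antiviral membrane protein gene, was at 13.2 and 14.6 CPM in the controls, versus 65.5 and 95.3 CPM in libraries 3 and 4. Cybb encodes a subunit of the phagocyte oxidase, Ctsh a cathepsin and Adgre1 the macrophage protein F4/80. Among the members themselves the distance was 0.64 for H2-DMb1, 1.80 for H2-Ob, 2.45 for Ciita, 2.72 for H2-DMb2, 2.77 for H2-DMa and 6.16 for H2-Oa. With 4 libraries in 2 groups, this order mainly ranks genes by the size of the difference between the genotypes.

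Of 80 tested genes of the wider pathway, edgeR called 1 higher (Ctss) and 0 lower after adjustment over all genes. With p under 0.05 unadjusted, 16 were higher and 3 lower, against 4.48% and 5.17% of all genes, and DESeq2 called 8 higher and 1 lower. The median log2 fold change of the 80 was 0.15, that of all tested genes -0.01. Leaving out any 1 of the 4 libraries ended the Ctss call.

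Genes of endosomal processing had the highest median of these lists. All 8 had a log2 fold change above 0, with a median of 0.97. Ctss, the cathepsin that trims the invariant chain, rose to 124.5 and 149.2 CPM from 19.2 and 30.3 CPM (log2 fold change 2.47, SE 0.26; adjusted p = 0.0489, edgeR). Lgmn, which encodes legumain, an endosomal protease, was at 4.78 and 4.85 versus 19.9 and 16.0 CPM (log2 fold change 1.90, SE 0.32; adjusted p = 0.177, edgeR). Cst3, a cathepsin inhibitor gene, was at 137.7 and 139.0 versus 254.5 and 240.3 CPM (log2 fold change 0.84, SE 0.13; adjusted p = 0.163, edgeR). DESeq2 called these 3 higher.

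The factors that CIITA docks on or recruits had a median of -0.25. edgeR called 0 of these 11 genes, and 0 were higher and 2 lower with p under 0.05 unadjusted. Crebbp, a histone acetyltransferase gene, was at 459.1 and 533.5 CPM in the controls, versus 323.2 and 313.0 CPM in libraries 3 and 4 (adjusted p = 0.277, edgeR), and DESeq2 called it alone. Kat2b, another acetyltransferase gene, was at 15.1 and 11.8 versus 4.93 and 6.98 CPM (adjusted p = 0.393, edgeR), and Ep300 at 13.3 and 17.3 versus 10.9 and 9.10 CPM. Rfx5, Rfxap and Rfxank, the RFX subunits, had log2 fold changes of -0.07, -0.34 and 0.12, and their groups overlapped.

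Regulators upstream of Ciita were not called by edgeR. Among these 17 genes, 5 were higher and 1 lower with p under 0.05 unadjusted, DESeq2 called 3 higher, and the median was 0.25. Ifng was at 97.8 and 75.8 versus 142.7 and 171.4 CPM (log2 fold change 0.86, SE 0.19; adjusted p = 0.277, edgeR). Ifngr2, a chain of its receptor, was at 1.38 and 1.19 versus 3.89 and 5.97 CPM (log2 fold change 1.94, SE 0.55; adjusted p = 0.361, edgeR). Irf4, a factor of dendritic and B cells, was at 0.569 and 0.233 versus 3.70 and 2.76 CPM (adjusted p = 0.329, edgeR).

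Genes induced by interferon-gamma, a list of 16 that shares 7 genes with other lists here, had a median of 0.14. edgeR called 0 of them, though 3 were higher unadjusted (0 lower), and DESeq2 called Cxcl9. This chemokine gene reached 1.84 CPM in library 3 and 12.3 CPM in library 4, from 0.190 and 0.550 CPM in the controls. Gbp2, a guanylate-binding protein gene, was at 111.2 and 115.1 versus 161.3 and 148.5 CPM, and Irf1 at 265.2 and 267.6 versus 336.2 and 378.7 CPM. The 13 class I presentation genes had a median of 0.13, with 2 higher and 0 lower unadjusted and 0 called by edgeR or DESeq2. Of these, H2-D1 had a log2 fold change of 0.42 (SE 0.14), B2m of 0.34 (SE 0.13) and Nlrc5, the class I counterpart of Ciita, of -0.55 (SE 0.25).

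Turnover, costimulation and binding partners gave no edgeR call. March1, the ubiquitin ligase that removes class II from the surface, was at 0.707 and 1.44 versus 3.35 and 3.58 CPM (log2 fold change 1.69, SE 0.66; adjusted p = 0.494, edgeR), and the lysosomal gene Lamp2 at 76.0 and 65.0 versus 107.9 and 94.5 CPM. Rab7, a gene of late endosome transport, was at 316.8 and 344.5 versus 369.8 and 381.5 CPM. March1 and Lamp2 were the 2 of 10 turnover genes higher with p under 0.05 unadjusted, with 0 lower, and DESeq2 called 0. Cd40, a costimulatory receptor, was at 0.0173 and 0.275 versus 2.86 and 3.77 CPM (log2 fold change 4.51, SE 1.23; adjusted p = 0.347, edgeR). It alone of 7 costimulatory genes was higher unadjusted and was called by DESeq2. Cd80, a ligand of CD28, was at 0.190 and 0.826 versus 1.44 and 2.09 CPM, Cd274, which encodes PD-L1, at 59.9 and 71.3 versus 55.1 and 50.9 CPM, and Cd86 between 12.7 and 13.3 CPM in all 4 libraries. Of the 5 tested partners that bind class II or CD74, 0 had p under 0.05 unadjusted and DESeq2 called 0. Lag3, an inhibitory receptor for class II, was at 131.6 and 69.7 versus 140.5 and 63.4 CPM, and Cd4 at 1.17 and 1.35 versus 1.68 and 4.21 CPM. Cxcr4 and Cd44, which encode partners of CD74, had log2 fold changes of 0.88 (SE 0.39) and 0.12 (SE 0.13).

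**Figure D3:**
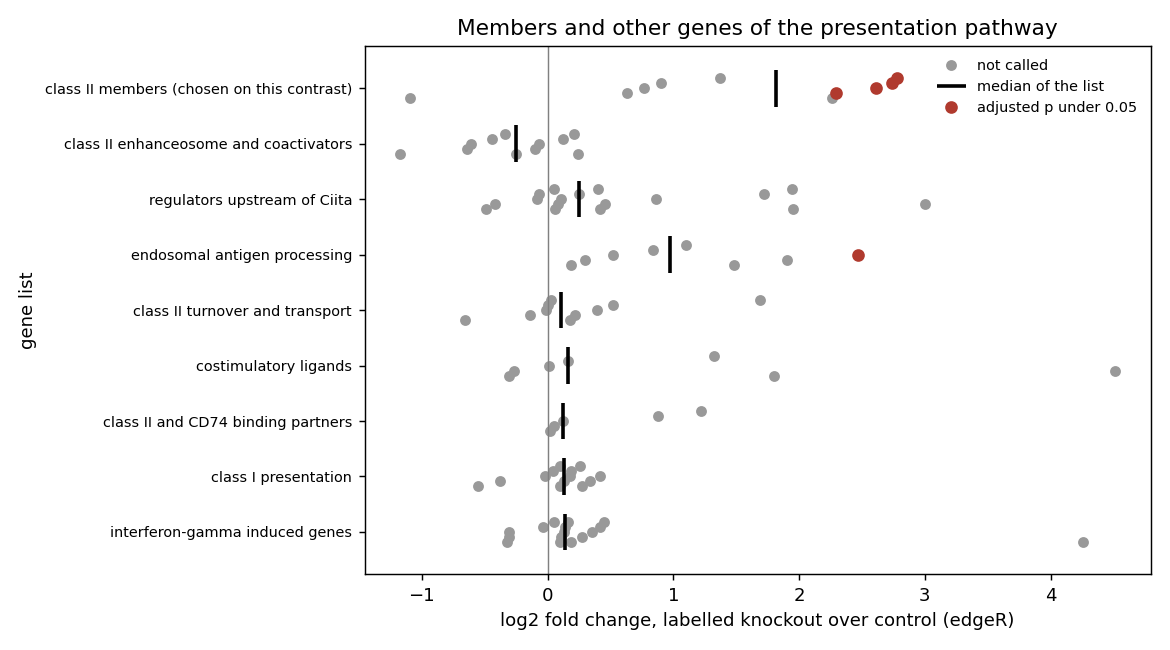
Log2 fold change, labelled knockout over control, for each tested gene of the class II members and of 8 pathway lists; black bars are list medians and red points passed an edgeR adjusted p under 0.05. The endosomal processing list has a median of 0.97, and the other pathway lists have medians from -0.25 to 0.25.

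Of the marker lists of cells that usually carry class II, only that of monocytes and macrophages held genes that edgeR called with all 4 libraries. In bulk libraries, fewer cells of a type and less RNA per cell cannot be told apart, and the part of other cells in the class II values was not tested. The sum of the 4 classical genes, most of it Cd74, differed 5.29-fold. The 16 monocyte and macrophage markers summed to 284.8 and 342.7 CPM in the controls, versus 1149 and 1099 CPM in libraries 3 and 4, which is 3.58-fold. Ccr2 was the largest part of that sum in the controls and Lyz2 in libraries 3 and 4, so the fold is not that of a typical marker. edgeR called 3 of 15 tested (Lyz2, Csf1r and Fcgr4), against 0.141% of all tested genes. With p under 0.05 unadjusted, 13 were higher and 0 lower, against 4.48% and 5.17% of all tested genes. DESeq2 called 8 higher, against 1.85% of all genes, and the median log2 fold change was 1.66. Lyz2, the lysozyme gene, rose to 626.0 and 582.5 CPM from 43.1 and 71.5 CPM (log2 fold change 3.40, SE 0.27; adjusted p = 0.0467, edgeR), and Csf1r to 77.7 and 74.9 CPM from 8.95 and 14.9 CPM (log2 fold change 2.68, SE 0.29; adjusted p = 0.0489, edgeR). Fcgr4, an Fc receptor gene, was at 2.52 and 2.22 versus 20.2 and 20.4 CPM (adjusted p = 0.0489, edgeR). Leaving out any 1 library ended the edgeR calls of Csf1r and Fcgr4, and leaving out library 4 ended that of Lyz2 too. Of the other defining markers, Adgre1 was at 2.57 and 2.77 versus 18.8 and 16.6 CPM, Ly6c2 at 28.0 and 33.9 versus 48.2 and 52.7 CPM, and Ccr2 at 148.3 and 168.0 versus 224.0 and 192.9 CPM.

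Dendritic cell markers differed in both directions. The 12 markers summed to 514.7 and 533.8 CPM in the controls, versus 558.0 and 586.1 CPM in libraries 3 and 4, most of it Itgax (479.6 and 492.3 versus 510.2 and 538.3 CPM). edgeR called 0 of 9 tested, with 3 higher and 1 lower unadjusted, against 4.48% and 5.17% of all tested genes. DESeq2 called 3 higher, against 1.85% of all genes, and the median log2 fold change was 1.54. Cd209a, a lectin gene of monocyte-derived and type 2 dendritic cells, was at 0.0173 and 0.423 versus 7.52 and 4.93 CPM (log2 fold change 4.84, SE 1.20; adjusted p = 0.308, edgeR), and Batf3 at 0.138 and 0.0847 versus 1.35 and 3.09 CPM. Ccr7, which marks migratory cells, had 0 and 1 counts in controls and 47 and 41 in libraries 3 and 4. In contrast Zbtb46, a factor of conventional dendritic cells, was at 9.28 and 12.3 versus 4.56 and 4.64 CPM (log2 fold change -1.23, SE 0.37; adjusted p = 0.38, edgeR). Flt3 was at 0.224 and 0.0423 CPM in the controls, 0 in library 3 and 0.0193 CPM in library 4. Clec9a had 2 counts in each control and 0 in libraries 3 and 4. Xcr1 lay between 19.7 and 24.9 CPM, and Siglech at 0.966 and 2.05 versus 1.72 and 7.03 CPM.

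Ighm gave most of the B cell marker sum. The 11 markers summed to 719.3 and 1049 CPM in the controls, versus 662.1 and 812.6 CPM in libraries 3 and 4, of which Ighm gave 702.6 and 1032 versus 632.8 and 791.6 CPM. Pax5 had 5 and 1 counts in controls and 0 in libraries 3 and 4, Cd79a did not pass 1.26 CPM and Ms4a1 was at most 2.44 CPM, in library 3. edgeR called 0 of 7 tested, none with p under 0.05 unadjusted, and DESeq2 called 0. Cd79b was at 10.7 and 12.5 versus 12.8 and 10.9 CPM, and Cd22 at 0.172 and 3.03 versus 9.38 and 7.83 CPM. The 6 Kupffer cell markers summed to 8.81 and 9.95 versus 10.3 and 6.90 CPM, with Clec4f at 5.69 and 4.81 versus 4.79 and 0.676 CPM, Cd5l at 3.12 and 2.14 versus 5.21 and 3.88 CPM, Timd4 at most 0.931 CPM, Marco at most 0.677 CPM and Vsig4 at 0 in libraries 1 and 3. The 6 endothelial markers summed to 57.8 and 81.7 versus 66.0 and 68.1 CPM, nearly all of it Pecam1, with Stab2 at most 1.397 CPM, Clec4g at most 0.773 CPM and Lyve1 at 0 throughout. Neither list had a member with p under 0.05 unadjusted, and edgeR and DESeq2 called 0.

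Group 3 innate lymphoid cells, which can express class II, left few marker transcripts. Il22, Il23r, Il17a and Areg were at 0 counts in all 4 libraries. Gata3, which ILC1s also express, made up nearly all of the summed 372.4 and 430.1 versus 337.2 and 356.7 CPM of that list of 8. Of these 8 genes 2 passed the filter on low counts, and neither had p under 0.05 unadjusted or a call by edgeR or DESeq2. T cells of the mouse are not a usual source of class II, but 1 of their markers passed the test. The 10 markers summed to 2016 and 1812 CPM against 2569 and 3593 CPM, and their median log2 fold change was 1.22. edgeR called 1 of 9 tested (Trac), against 0.141% of all tested genes. With p under 0.05 unadjusted, 6 were higher and 0 lower, against 4.48% and 5.17% of all tested genes. DESeq2 called 4 higher, against 1.85% of all genes. Trac rose to 85.1 and 200.9 CPM from 7.31 and 5.67 CPM (log2 fold change 4.46, SE 0.45; adjusted p = 0.0489, edgeR), while Cd3e was at 26.5 and 15.1 versus 152.5 and 371.0 CPM and Cd3d at 21.4 and 18.5 versus 87.1 and 209.3 CPM. The Trac call was lost without control library 1, control library 2 or library 4, and kept without library 3. Cd3g was at 1469 and 1255 versus 1623 and 1930 CPM, and Trbc2 at 445.8 and 466.8 versus 527.0 and 693.8 CPM. The ILC1 and natural killer cell markers, 16 in all, had a median of 0.05, with 0 called by edgeR. Of these, 3 were higher and 1 lower unadjusted, against 4.48% and 5.17% of all tested genes. DESeq2 called 2 higher and 1 lower, against 1.85% and 1.36% of all genes. Ncr1 was at 1672 and 1772 versus 1202 and 1077 CPM (log2 fold change -0.60, SE 0.14; adjusted p = 0.28, edgeR), and Gzma and Gzmb, granzyme genes, had log2 fold changes of 0.80 and 0.66.

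**Figure D4:**
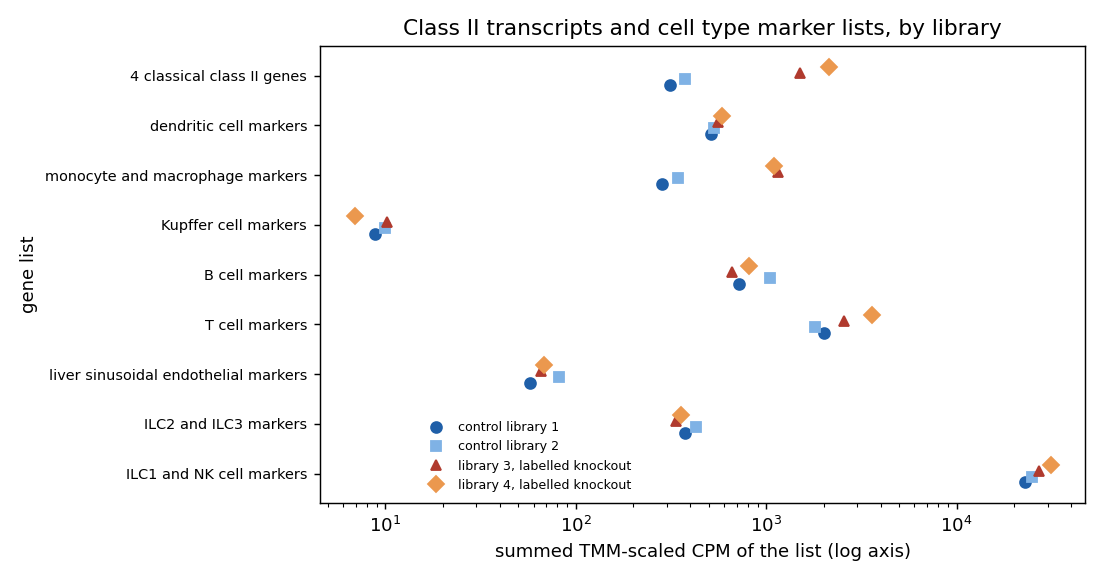
Summed TMM-scaled CPM (log axis) of the 4 classical class II genes (H2-Aa, H2-Ab1, H2-Eb1 and, grouped with them, Cd74) and of 8 cell type marker lists in each library. The class II sum, mostly Cd74, and the monocyte and macrophage sum lie apart between the genotypes by 5.29-fold and 3.58-fold. The largest part of the monocyte and macrophage sum is Ccr2 in controls and Lyz2 in libraries 3 and 4. The dendritic cell sum runs from 514.7 to 586.1 CPM and is mostly Itgax, so it says little about the other markers of that list.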

How the data were processed

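The deposited file gives raw read counts by Ensembl gene for 4 libraries. The submitters' processing notes list STAR, featureCounts, Subread, DESeq2, bcl2fastq and mm10, without their roles. The annotation, read length and strand setting are not given in the sources used here. Per the labels' protocols, total RNA went into a SMARTer low-input kit and NovaSeq sequencing. The table's 40757 lines held 276 repeats with identical counts, which were dropped. No per-sample column was unused.

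Genes were filtered (filterByExpr), scaled by TMM and tested two-sided with edgeR 4.0.16 (robust quasi-likelihood, R 4.3.3) on genotype alone, leaving 2 residual degrees of freedom. P-values were adjusted by Benjamini-Hochberg over 14863 genes. SE is the fold change divided by the root of its F statistic. The code was tested on simulated counts that varied alike for all genes, with changes set only in genes of higher counts. That test does not cover differences in low-count genes such as H2-Oa, H2-Ob and Ciita. Alternatives were DESeq2 1.42.0, limma 3.58.1 (voom), 2 other scalings, 2 other filters and leaving out each library. Exon lengths and positions came from GENCODE M21 (mm10), promoter windows from RefSeq.

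The members and gene lists were chosen with earlier results of these data known. Named genes are the 10 members, each list's called genes, its 3 smallest p-values and its defining markers, and the 6 genes nearest in profile. Cd86, Lag3, the RFX subunits, the H2-Ea-ps and H2-Eb2 genes and several markers at or near 0 were named after their values were seen, as were Brd2 and BC051537. Counts come without molecular identifiers, so duplicate reads are not separated. Some genes that this rule names are not reported here.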

Additional observations from a re-analysis of the deposited data

How the results depend on the processing

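Against 21 genes called higher and 2 lower by edgeR, there were 299 and 264 with no filter on low counts, 40 and 9 with at least 50 counts in 2 libraries, 278 and 204 by DESeq2, and 22 and 6 with library totals only. With 1 library left out, the range was 0 to 18 higher and 0 to 2 lower; the lone library of a group is then assumed to vary like the other group. Pathway genes called higher numbered 6 with no filter and 8 by DESeq2 against 1, with 0 whichever library was left out, and 1 was lower in both fits against 0. Members called numbered 0 to 4 with 1 library left out and 4 or 5 under the 6 other alternatives. Each of the 10 members kept its direction under all 10 alternatives, with ranges of log2 fold change of 2.41 to 3.03 for H2-Aa, 2.47 to 2.69 for H2-Ab1, 2.52 to 2.89 for H2-Eb1, 1.96 to 2.52 for Cd74, 2.15 to 2.32 for H2-DMb1, 0.32 to 1.03 for H2-DMa, 0.74 to 1.10 for Ciita, 0.88 to 2.11 for H2-Ob, 0.12 to 1.5 for H2-DMb2 and -3.03 to -0.32 for H2-Oa. The cause of these changes was not tested. The low counts of H2-DMb2, H2-Oa, H2-Ob and Ciita, 15 to 287 per library, limit their precision. The sample titles number the libraries labelled knockout 3 and 4, whereas the deposited count columns number them 1 and 2, like the controls. Whether libraries with the same number form pairs is not stated. No paired analysis was run.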
